A study of Rattus norvegicus with 6 samples.

Results

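In all, 10 genes of the SLC2 family of facilitative glucose transporters were examined in the testis of diabetic rats and controls. The members were taken by gene symbol, and each symbol labelled 1 of the 35291 genes of the deposited expression table. RNA-Seq had been performed on testicular tissue of 6 Sprague-Dawley rats, 3 with diabetes induced by streptozotocin (STZ), a toxin of pancreatic beta cells, and 3 non-diabetic (ND) rats labelled normal. Diabetes had lasted 8 weeks in the diabetic (DM) rats. According to the methods of the study, the rats made diabetic were fed a high-fat diet before a single STZ injection and the control rats were injected with citrate buffer. A high-fat diet is not stated for the control rats, so that diet and STZ cannot be told apart in these groups. The rats were adult males, with no age in weeks given for them, and the values belong to whole testis.

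SLC2 proteins (GLUTs) carry hexoses across membranes down their concentration gradient, without the use of sodium. Class I holds the glucose carriers GLUT1 to GLUT4, class II carriers of fructose and urate, and class III mostly intracellular members and a proton-coupled carrier of myo-inositol. In the seminiferous tubule, Sertoli cells take up glucose and pass lactate on to the germ cells, since spermatocytes and spermatids behind the blood-testis barrier depend on this supply, whereas sperm also burn glucose and fructose themselves.

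Levels were deposited as FPKM, fragments per kilobase of transcript scaled to library size, which divides by length and so allows levels of different genes to be set side by side. Reads per library are unknown. Relative depth was inferred from the commonest ratio between libraries among genes under 1 FPKM, held by 31 to 56 genes per pair of libraries. It lay between 0.966 and 1.09 in the DM rats and between 0.893 and 1.02 in the ND rats, against a mean of 1. DM and ND testes were compared on log2(FPKM + 0.1) with limma, and log2 fold changes (DM minus ND) are on that scale. The fit covered the 20338 genes whose mean reached 0.5 FPKM across the 6 animals, and the adjusted p was taken over all of them. With 3 rats against 3, an exact permutation test on 1 gene has a smallest p of 0.1. Of the 10 members, 6 passed the filter (Slc2a1, Slc2a2, Slc2a3, Slc2a4, Slc2a6 and Slc2a8). The other 4 (Slc2a5, Slc2a9, Slc2a10 and Slc2a13) had too low a mean and are given by their values and by the same fit run without the filter. Slc2a4 lay just inside the filter, at 0.544 FPKM over the 6 rats, and Slc2a9 just outside it, at 0.483 FPKM. In both genes only the ND mean was above 0.5 FPKM. The DM and ND means were 0.467 and 0.621 FPKM for Slc2a4 and 0.394 and 0.571 FPKM for Slc2a9. Slc2a4 thus entered the fit through its ND rats, the group where it was higher.

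The family was dominated by Slc2a3, with Slc2a8 next and every other member far lower. In the ND rats Slc2a3 held 78.3% ± 1.73 (SD, n = 3) of the summed FPKM of the 10 genes and Slc2a8 held 17.8% ± 1.33 (SD, n = 3). The summed level was 196 ± 8.82 FPKM in the ND and 210.3 ± 10.4 FPKM in the DM rats (SD, n = 3 each). The sum of the 8 remaining members was 7.66 ± 0.555 FPKM and 7.71 ± 0.125 FPKM (SD, n = 3 each). By its ND mean Slc2a3 ranked 483 among all 35291 genes, Slc2a8 ranked 2600 and Slc2a1 ranked 11010. The order of the ND means was Slc2a3, Slc2a8, Slc2a1, Slc2a2, Slc2a6, Slc2a4, Slc2a9, Slc2a5, Slc2a13 and Slc2a10. In the DM rats Slc2a6 stood above Slc2a2, and the order was otherwise the same.

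**Figure D1:**
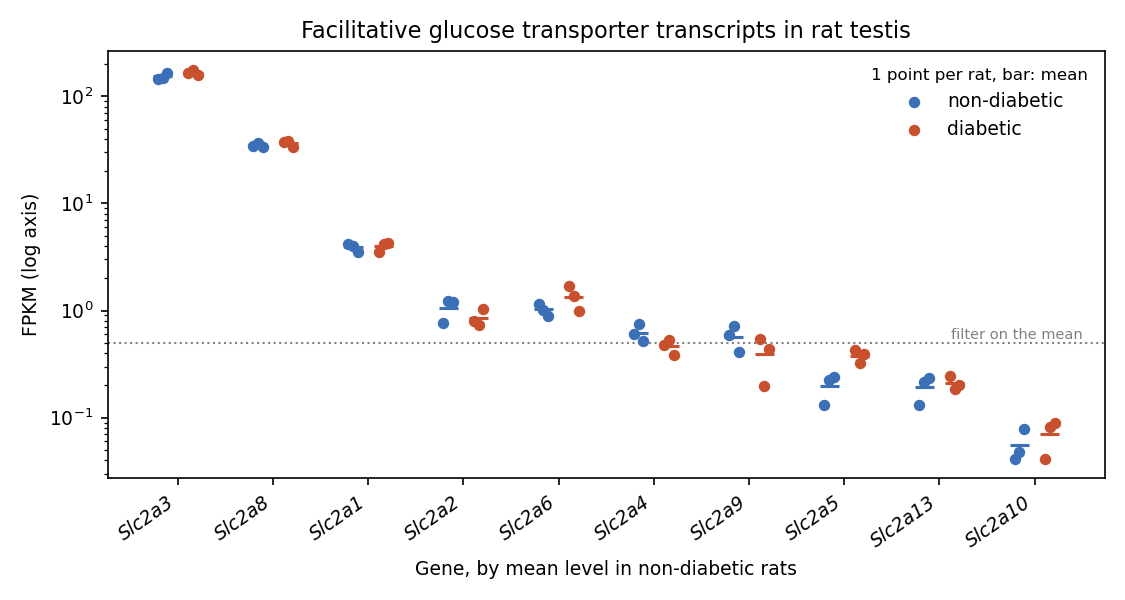
Level of each transporter transcript in FPKM (log axis), with 1 point per rat, blue for ND and red for DM rats, and a bar at each mean of 3 rats. Slc2a3 lay between 147 and 176 FPKM and Slc2a8 between 33.6 and 38.1 FPKM in all rats, while the remaining members stayed at or below 4.30 FPKM.

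The order was taken from the levels of these same rats, so its steps are given as values and ranges, with no test. Over all 6 rats the ranges were separate in 5 of the 9 neighbouring pairs. They were Slc2a3 above Slc2a8 by 2.16 ± 0.098, Slc2a8 above Slc2a1 by 3.14 ± 0.16, Slc2a1 above Slc2a2 by 1.95 ± 0.35, Slc2a6 above Slc2a4 by 0.99 ± 0.43 and Slc2a13 above Slc2a10 by 0.89 ± 0.26 (mean difference in log2(FPKM + 0.1) within a rat ± SD, n = 6). For Slc2a9 and Slc2a5 the ranges were separate in the ND rats and overlapped in the DM rats. In the 3 remaining pairs the ND ranges overlapped, with Slc2a2 above Slc2a6 in 3 of 6 rats, Slc2a4 above Slc2a9 in 4 of 6 and Slc2a5 above Slc2a13 in 5 of 6.

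No member past the filter reached a threshold in the comparison of DM with ND testes. An unadjusted p below 0.05 in limma was reached by 0 of the 6 members tested, against 7.46% of all genes tested. The criterion of the study was a log2 fold change of 1 or more in either direction and an unadjusted p below 0.05. The study screened with DESeq2, whereas the criterion was applied here to the limma fit. It was met by 0 of 6 members and by 1.24% of all genes. An adjusted p below 0.05 was reached by 0 of 6 members and by 0.0344% of all genes. The DM and ND rats overlapped in all 6 members, whereas the groups were separate for 13.0% of all genes tested. The median log2 fold change was 0.039 over the 6 members and -0.021 over all genes tested. With 6 members, shares of this size would leave few or no members called. The intervals below therefore say more than these counts, since they give the differences that the data still allow.

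**Figure D2:**
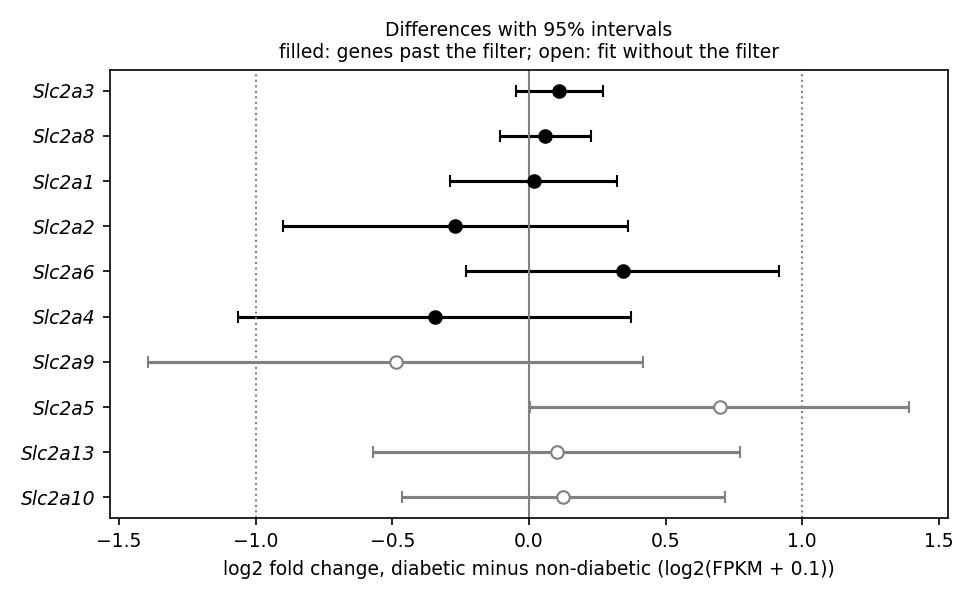
Log2 fold change of each member, DM minus ND on log2(FPKM + 0.1), with its 95% interval from limma, filled for the 6 genes past the filter and open for the 4 genes below it (fit without the filter). Dotted lines mark a log2 fold change of 1 in either direction, and the intervals of Slc2a3 and Slc2a8 are the narrowest while that of Slc2a5 starts at 0.0043.

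Among the class I glucose carriers, Slc2a3 encodes GLUT3, a high-affinity transporter best known from neurons and also present in spermatids and sperm. Slc2a3 (ENSRNOG00000008376) was at 164, 176 and 159 FPKM in the DM rats and at 147, 149.6 and 165 FPKM in the ND rats. ND replicate 3 lay above DM replicates 1 and 3, and the other ND rats lay below all DM rats. Mean levels of 166 ± 8.59 FPKM (DM) and 154 ± 9.92 FPKM (ND; SD, n = 3 each) gave a log2 fold change of 0.11 ± 0.068 (SE; limma, adjusted p = 0.801). The 95% interval ran from 0.967 to 1.21 as a fold. An exact permutation test gave p = 0.3. Leaving out single rats moved the log2 fold change, from 0.071 (without DM replicate 2, unadjusted p = 0.382 in limma) to 0.16 (without ND replicate 3, unadjusted p = 0.0468 and adjusted p = 0.664).

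Slc2a1 encodes GLUT1, the carrier of basal glucose uptake in most tissues and the main one described in Sertoli cells. Slc2a1 (ENSRNOG00000007284) was at 3.49, 4.16 and 4.30 FPKM in the DM rats and at 4.20, 4.05 and 3.54 FPKM in the ND rats, so that each group had 1 rat near 3.5 FPKM and 2 rats above 4 FPKM. Mean levels were 3.99 ± 0.432 FPKM in DM and 3.93 ± 0.346 FPKM in ND testis (SD, n = 3 each). Slc2a1 had a log2 fold change of 0.017 ± 0.13 (SE; limma, adjusted p = 0.992), and its 95% interval ran from 0.819 to 1.25 as a fold. Its sign changed when single rats were left out, between -0.054 and 0.11. In ND testis the level of Slc2a3 was 39.5 ± 6.26 times that of Slc2a1, and in DM testis 42.0 ± 5.01 times (SD, n = 3 each).

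Slc2a4 encodes GLUT4, the insulin-responsive carrier of muscle and fat. Slc2a4 (ENSRNOG00000017226) was at 0.480, 0.535 and 0.385 FPKM in the DM rats and at 0.598, 0.745 and 0.520 FPKM in the ND rats. The groups overlapped by 1 rat on each side, DM replicate 2 and ND replicate 3. Mean levels of 0.467 ± 0.0759 FPKM (DM) and 0.621 ± 0.115 FPKM (ND; SD, n = 3 each) gave a log2 fold change of -0.34 ± 0.31 (SE; limma, adjusted p = 0.878). The 95% interval of Slc2a4 ran from 0.479 to 1.30 as a fold, and the exact permutation test gave p = 0.2. The summed level of the skeletal muscle and fat markers was also lower in the DM rats, at 4.54 to 5.53 FPKM against 5.57 to 6.76 FPKM. Its 5 genes did not move together. Means of 3 DM and 3 ND rats are given for each. Of the fat cell genes, Adipoq, which encodes adiponectin and held most of the sum, was at 3.45 and 4.37 FPKM, without overlap. Its adjusted p in limma was 0.729, and the groups were separate for 13.0% of all genes tested. Fabp4, a fatty acid binding protein, was at 0.289 and 0.700 FPKM, also without overlap, as for 8.54% of the genes below the filter. Plin1, the perilipin of lipid droplets, was higher in the DM rats, at 0.241 and 0.163 FPKM. Of the muscle genes, Ckm, a creatine kinase, was at 0.120 and 0.0671 FPKM and Acta1, skeletal actin, at 0.814 and 0.815 FPKM. The part of such cells in the value of Slc2a4 was not tested.

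Slc2a2 encodes GLUT2, the low-affinity carrier of hepatocytes and beta cells. Slc2a2 (ENSRNOG00000011875) was at 0.802, 0.738 and 1.04 FPKM in the DM rats and at 0.765, 1.22 and 1.21 FPKM in the ND rats. ND replicate 1 sat among the DM rats, and the other ND rats lay above them all. The log2 fold change was -0.27 ± 0.27 (SE; limma, adjusted p = 0.898), and the 95% interval ran from 0.535 to 1.29 as a fold.

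Of class II, Slc2a5 encodes GLUT5, the fructose carrier, which is also known from spermatids and sperm. Slc2a5 (ENSRNOG00000017693) was the member whose groups did not overlap, at 0.425, 0.321 and 0.389 FPKM in the DM rats and at 0.130, 0.226 and 0.237 FPKM in the ND rats. All DM rats lay above all ND rats (exact permutation p = 0.1, the smallest possible). Mean levels were 0.378 ± 0.0524 FPKM in DM and 0.198 ± 0.0590 FPKM in ND testis (SD, n = 3 each), a ratio of 1.91. Of the 10444 genes below the filter and above 0 in at least 1 rat, the groups did not overlap for 8.54%, and among the 4 members below the filter they did not overlap for 1. In the fit without the filter the log2 fold change of Slc2a5 was 0.70 ± 0.29 (SE), with a 95% interval from 0.0043 to 1.39. Its unadjusted p in that fit was 0.0489, as reached by 6.64% of the 30782 genes, and its adjusted p was 0.742. With each rat left out the unadjusted p was 0.0540 to 0.144 and the log2 fold change 0.52 to 0.80. Fewer samples enter these fits by construction, so the higher p does not show dependence on single rats. With a pseudocount of 0.01 the unadjusted p was 0.0764, so that its place below 0.05 depended on the pseudocount. A pseudocount of 1 brought the log2 fold change down to 0.20, with an unadjusted p of 0.0186. The number of fragments behind these low values is unknown. Slc2a5 stayed below Slc2a1 in every rat, at 0.0964 ± 0.0228 of its level in the DM and 0.0512 ± 0.0185 in the ND rats (SD, n = 3 each).

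Slc2a9 encodes GLUT9, a urate carrier. Slc2a9 (ENSRNOG00000005302) was at 0.546, 0.200 and 0.436 FPKM in the DM rats and at 0.590, 0.712 and 0.411 FPKM in the ND rats, with the lowest value in DM replicate 2. Mean levels were 0.394 ± 0.177 FPKM in DM and 0.571 ± 0.151 FPKM in ND testis (SD, n = 3 each). Without the filter the log2 fold change was -0.49 with a 95% interval from -1.39 to 0.42 (limma, adjusted p = 0.873), and the groups overlapped. Without DM replicate 2, Slc2a9 passed the filter and its log2 fold change was -0.16 (limma, unadjusted p = 0.685).

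**Figure D3:**
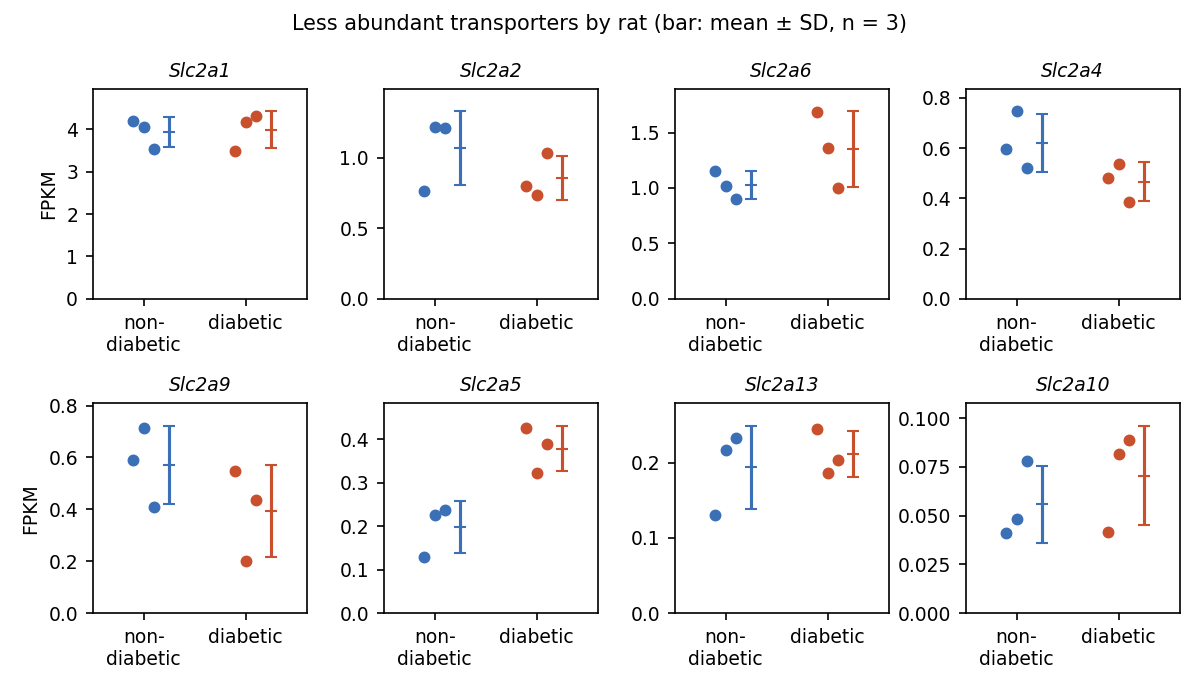
FPKM of the 8 members other than Slc2a3 and Slc2a8 on linear axes that start at 0, with 1 point per rat and the mean ± SD of 3 rats beside it, blue for ND and red for DM rats. The groups were separate for Slc2a5, at 0.130 to 0.237 FPKM against 0.321 to 0.425 FPKM, and overlapped for the other 7 members.

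Of class III, Slc2a8 encodes GLUT8, an intracellular hexose carrier whose transcript is known to be abundant in testis, in spermatids above all. Slc2a8 (ENSRNOG00000022274) was at 37.3, 38.1 and 33.9 FPKM in the DM rats and at 34.2, 36.9 and 33.6 FPKM in the ND rats, so that the ranges overlapped over most of their width. Mean levels were 36.4 ± 2.24 FPKM in DM and 34.9 ± 1.71 FPKM in ND testis (SD, n = 3 each). Slc2a8 had a log2 fold change of 0.061 ± 0.071 (SE; limma, adjusted p = 0.918), and the 95% interval ran from 0.928 to 1.17 as a fold. The ratio of Slc2a3 to Slc2a8 was 4.56 ± 0.148 in the DM and 4.42 ± 0.440 in the ND rats (SD, n = 3 each).

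Slc2a6 encodes GLUT6, a lysosomal member known from macrophages and other leukocytes. Slc2a6 (ENSRNOG00000005900) was at 1.68, 1.36 and 0.998 FPKM in the DM rats and at 1.15, 1.02 and 0.898 FPKM in the ND rats, and 2 of the 3 DM rats lay above every ND rat. The log2 fold change was 0.34 ± 0.24 (SE; limma, adjusted p = 0.836), and the 95% interval ran from 0.853 to 1.89 as a fold. The macrophage markers had a lower summed level in the DM rats, at 27.4 to 33.2 FPKM against 34.3 to 36.2 FPKM. Most of this sum was Mrc1, at 20.8 and 21.6 FPKM with groups that overlapped (means of 3 DM and 3 ND rats). Of the 7 markers, 3 were lower at an unadjusted p below 0.05 in limma, against 7.46% of all genes tested. Among these 3, Cd68 passed the filter through its ND rats, with a DM mean of 0.493 FPKM. The part of macrophages in the value of Slc2a6 was not tested.

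Slc2a13 encodes HMIT, the proton-coupled carrier of myo-inositol. Slc2a13 (ENSRNOG00000015741) was at 0.245, 0.186 and 0.204 FPKM in the DM rats and at 0.130, 0.217 and 0.233 FPKM in the ND rats (exact permutation p = 0.8). Slc2a10 encodes GLUT10, a member of the endomembranes whose loss causes arterial tortuosity. Slc2a10 (ENSRNOG00000025384) was the lowest member, at 0.0414, 0.0813 and 0.0889 FPKM in the DM rats and at 0.0411, 0.0481 and 0.0782 FPKM in the ND rats (exact permutation p = 0.4). The groups overlapped in both genes. In the fit without the filter the 95% interval of the log2 fold change ran from -0.57 to 0.77 for Slc2a13 and from -0.46 to 0.72 for Slc2a10.

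The promoter table used here, from RefSeq (build GRCr8), held sequence upstream of the start site for 7 of the 10 members. The 250 bases before the start are shown for Slc2a8, the abundant member with a sequence, for Slc2a1, the carrier of most other tissues, and for Slc2a5, whose groups were separate. They lie on chr3:36682135-36682384 (minus strand), chr5:138002272-138002521 (plus strand) and chr5:165865929-165866178 (plus strand). Capitals mark the CCAAT box (CCAAT, or ATTGG on the other strand) and the GC box (GGGCGG, or CCGCCC on the other strand), elements found in many promoters.
Slc2a8: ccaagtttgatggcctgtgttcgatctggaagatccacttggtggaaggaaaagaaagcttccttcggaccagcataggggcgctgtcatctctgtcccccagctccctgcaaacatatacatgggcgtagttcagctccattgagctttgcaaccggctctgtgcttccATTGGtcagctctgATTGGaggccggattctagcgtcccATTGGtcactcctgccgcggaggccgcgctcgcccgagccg
Slc2a1: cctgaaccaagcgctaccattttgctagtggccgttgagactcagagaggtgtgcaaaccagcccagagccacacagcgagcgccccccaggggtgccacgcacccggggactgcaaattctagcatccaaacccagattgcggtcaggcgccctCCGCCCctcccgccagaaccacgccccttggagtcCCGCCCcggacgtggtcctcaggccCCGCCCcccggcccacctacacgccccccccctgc
Slc2a5: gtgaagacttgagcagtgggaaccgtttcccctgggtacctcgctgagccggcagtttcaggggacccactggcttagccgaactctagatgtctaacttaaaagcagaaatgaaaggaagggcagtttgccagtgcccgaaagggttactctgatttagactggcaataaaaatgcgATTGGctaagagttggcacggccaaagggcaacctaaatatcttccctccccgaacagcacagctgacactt
The Slc2a8 window held 3 CCAAT boxes, ending 76, 62 and 37 bases before the start, and 0 GC boxes. The Slc2a1 window held 3 GC boxes, ending 90, 55 and 30 bases before the start, and 0 CCAAT boxes. The Slc2a5 window held 1 CCAAT box. A CCAAT box was found in 3 of the 7 member windows (Slc2a5, Slc2a6 and Slc2a8) and in 34.0% of all 33469 windows of that length, and a GC box in 3 of 7 (Slc2a1, Slc2a6 and Slc2a13) and in 30.5%. The TATA box (TATAAA, or TTTATA on the other strand) was in 0 of the 7 member windows and in 12.9% of all windows. GC content was 57.2% for Slc2a8, 68.4% for Slc2a1 and 50.8% for Slc2a5, against a median of 51.2% over all windows.

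Genes that act with these transporters were taken from fixed lists. Of the other SLC2 genes, Slc2a12 was at 1.21 ± 0.0818 FPKM and 1.23 ± 0.248 FPKM, and Slc2a7 at 0.505 ± 0.265 FPKM and 0.620 ± 0.0932 FPKM (DM and ND, SD, n = 3 each). Neither had an unadjusted p below 0.05. The sodium-coupled transporters of the SLC5 family were low as well. Of the 6 found in the table, 2 passed the filter, and 0 of 2 reached an unadjusted p below 0.05. Slc5a4 was at 1.35 ± 0.161 FPKM and 1.09 ± 0.0281 FPKM with groups that did not overlap, as for 13.0% of all genes tested (limma, adjusted p = 0.831), and Slc5a10 at 1.52 ± 0.146 FPKM and 1.15 ± 0.334 FPKM (SD, n = 3 each).

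Of the 18 genes of transporter trafficking and binding tested, 1 had an unadjusted p below 0.05, against 7.46% of all genes tested, and the groups were separate for 3, against 13.0%. The median log2 fold change was 0.0088. The gene with an unadjusted p below 0.05 was Txnip, whose protein binds GLUTs and promotes their internalisation and whose transcription responds to glucose. Txnip was at 36.5 ± 2.06 FPKM in the DM and 31.0 ± 1.28 FPKM in the ND rats (SD, n = 3 each), higher in 3 of 3 DM rats than in every ND rat. Its log2 fold change was 0.24 ± 0.068 (SE; limma, adjusted p = 0.492). Aspscr1, which encodes the GLUT4 tether TUG, had a log2 fold change of 0.11 (limma, adjusted p = 0.740), and Rab10, a small GTPase of GLUT4 vesicles, one of -0.14 (limma, adjusted p = 0.782).

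Of the 7 genes of hexose phosphorylation and the polyol route tested, 1 had an unadjusted p below 0.05, against 7.46% of all genes, and the groups were separate for 1, against 13.0%. Counts of 1 in lists of this size are near these shares. Sord, the sorbitol dehydrogenase that makes fructose from sorbitol, was at 249.98 ± 5.08 FPKM in the DM and 223 ± 12.0 FPKM in the ND rats (SD, n = 3 each), with a log2 fold change of 0.17 (limma, adjusted p = 0.598) and no overlap. Hk1, the hexokinase that traps glucose after uptake, was at 850.3 ± 64.5 FPKM and 796 ± 29.9 FPKM (SD, n = 3 each; limma, adjusted p = 0.845). Khk, the ketohexokinase that phosphorylates fructose, had a log2 fold change of -0.36 (limma, adjusted p = 0.916). Of the 11 transcriptional regulators tested, 10 had a log2 fold change below 0, as had 55.6% of all genes tested. Their median was -0.057, and 0 had an unadjusted p below 0.05, against 7.46% of all genes tested. The groups were separate for 3 of the 11, against 13.0% of all genes tested. Mlxipl, which encodes the glucose-responsive factor ChREBP, was at 1.49 ± 0.205 FPKM in the DM and 1.85 ± 0.115 FPKM in the ND rats (SD, n = 3 each), with groups that did not overlap (limma, adjusted p = 0.787). Klf15, a known activator of Slc2a4, had a log2 fold change of -0.51 (limma, adjusted p = 0.762), also with separate groups, and Mef2a one of -0.13 (limma, adjusted p = 0.844).

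**Figure D4:**
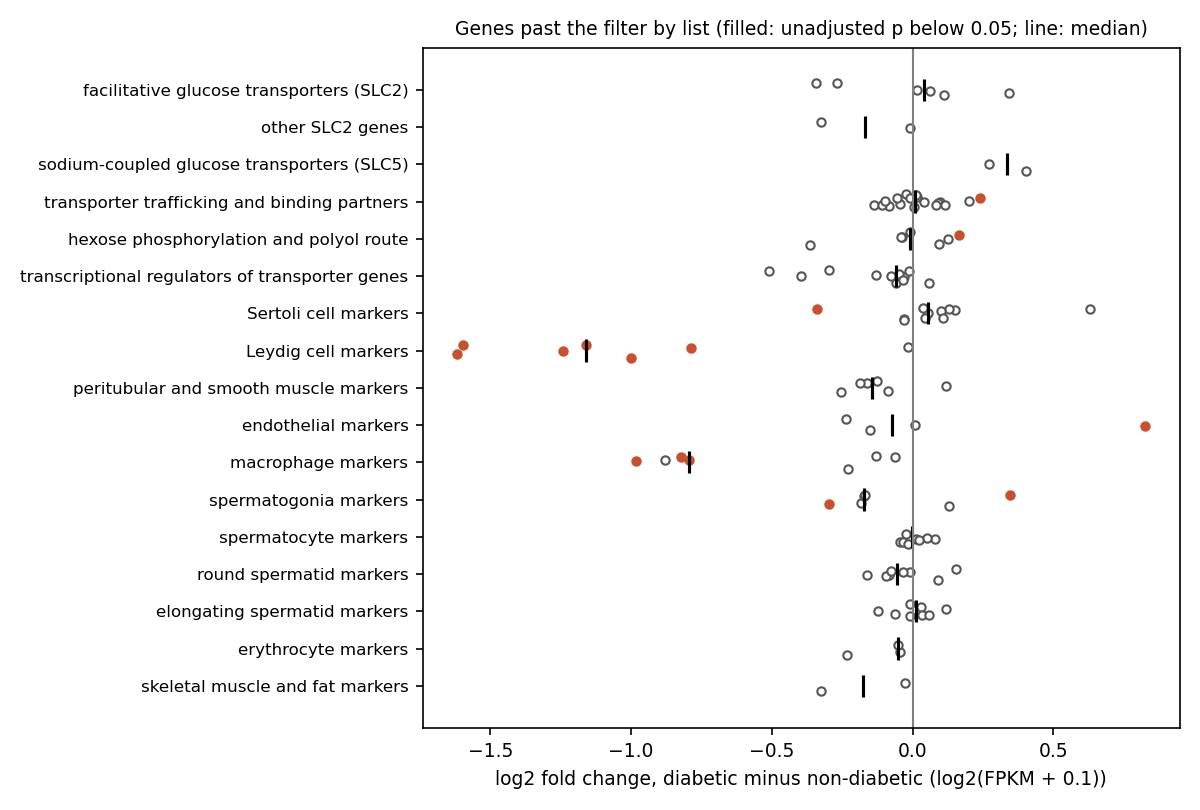
Log2 fold change (DM minus ND, log2(FPKM + 0.1)) of each gene past the filter in the transporter, partner and cell type marker lists, filled where the unadjusted p from limma was below 0.05, with a line at the median of each list. The 6 transporters lay between -0.34 and 0.34, with a median of 0.039. The lowest list medians were -1.16 for the Leydig cell markers and -0.795 for the macrophage markers. All other list medians lay between -0.18 and 0.34.

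Markers of the testicular cell types gave the setting of these values. Their counts below stand against 7.46% of all genes tested with an unadjusted p below 0.05 in limma. Those of round and elongating spermatids, the germ cells in which Slc2a3 and Slc2a8 are known to be transcribed, had summed levels of 751 to 829 FPKM and 14995 to 16382 FPKM in the DM rats. In the ND rats they were at 702 to 854 FPKM and 14281 to 16603 FPKM, and in each list 0 of 8 genes had an unadjusted p below 0.05. The same held for 0 of 8 spermatocyte markers. For the spermatogonia markers it was 1 higher and 1 lower of 6, namely Uchl1 and Kit. Sertoli cell markers, at 409 to 431 FPKM and 360 to 439 FPKM, had 1 of 11 below 0.05 (Inha, lower). Of the 6 peritubular and smooth muscle markers and the 3 erythrocyte gene rows, 0 were below 0.05, and of the 4 endothelial markers 1 was (Flt1, higher). Leydig cell markers stood apart, with 6 of 7 lower at an unadjusted p below 0.05 and a summed level of 33.9 to 66.1 FPKM against 91.8 to 129 FPKM. One of them, Cyp17a1 of testosterone synthesis, also had an adjusted p below 0.05 (limma, adjusted p = 0.0415). Of the 7 macrophage markers, 3 were lower at an unadjusted p below 0.05 (Csf1r, C1qa and Cd68). Cd68, with means of 0.493 FPKM in the DM and 1.06 FPKM in the ND rats, passed the filter through its ND rats. In whole testis, fewer cells of a type and less RNA per cell cannot be told apart, and the part of cell composition in the transporter values was not tested.

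Likeness to the 3 highest members was described by Pearson's r of log2(FPKM + 0.1) over the 6 rats, among 17600 other genes with a symbol. The genes most like Slc2a3 were SNORD26 (r = 0.995), Akap8 (r = 0.993) and Apba1 (r = 0.981). For Slc2a8 they were Mapk12 (r = 0.995), LOC100909893 (r = 0.991) and Cib1 (r = 0.989), and for Slc2a1 they were AC097153.1 (r = 0.992), Pdss1 (r = 0.986) and Hdgf (r = 0.985). An r above 0.9 was held by 103 genes for Slc2a3, 211 for Slc2a8 and 93 for Slc2a1. These are descriptions over 6 rats, in which the genes share library, depth and group. The named genes were picked as the 3 highest r among 17600. With 6 rats, an r this high can turn up among so many genes without any link between them. No expected count was worked out.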

How the data were processed

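Testis RNA of 3 DM and 3 non-diabetic (ND) rats had been sequenced with paired ends. The authors checked reads with FastQC, compared them with rRNA by BWA, aligned them with STAR, assembled transcripts with StringTie and deposited FPKM per gene. They screened differential transcripts with DESeq2, which was not run here. Genome build and tool versions are not given in the sources used here. Reads counted towards overlapping or similar transcripts could move between genes, and 5 of the 10 members carried values with more than 6 decimals, as sums over transcripts would.

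FPKM were used as log2(FPKM + 0.1) where the mean reached 0.5 FPKM, and fitted with limma 3.58.1 in R 4.3.3 (trended eBayes), by two-sided tests with Benjamini-Hochberg adjustment over 20338 genes. Each replicate is called a rat here, although the labels give replicate numbers only, and p-values measure the spread between these samples. The steps were run on simulated data with changes larger than those of any member. That run does not show what could be found at the sizes seen here. A permutation test planned for the order of levels is not reported, because the order came from the same rats. Named genes were all 10 members, the 3 with the smallest unadjusted p in each list of partners and, for the cell type lists, counts with those singled out after their values were seen. Members, lists, motifs and rules were chosen with earlier results of these data known.

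The alternatives were another pseudocount, filter, scaling, eBayes setting or gene set, the replicate number as a block, summed symbols, and leaving out each rat. Same-numbered rats correlated in their deviations at 0.106, 0.0153 and 0.0979, and differently numbered rats at -0.126 to 0.0318. The labels name no pairs, so the main fit had no block. These values do not settle whether the numbers mark pairs. Promoter sequences came from RefSeq (GRCr8) and were searched in Python 3.11.15. Depth in reads is unknown, and no interval for counting error is given.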

Additional observations from a re-analysis of the deposited data

How the results depend on the processing

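The number of members with an unadjusted p below 0.05 was 0 of 6. It became 1 of 10 without the filter on low genes (Slc2a5), where 30782 genes entered the fit. It ranged from 0 to 1 with each rat left out, the 1 being Slc2a3 without ND replicate 3. That rat had the highest ND value of Slc2a3, at 165 FPKM, and without it the log2 fold change rose from 0.11 to 0.16. Fewer samples enter the fits with a rat left out by construction, and no cause was tested. The counts past the criterion of the study and at an adjusted p below 0.05 were 0 under every alternative run. The log2 fold changes of Slc2a2, Slc2a3, Slc2a4, Slc2a6 and Slc2a8 kept their sign under all alternatives that tested them, but not their size. With each rat left out they ran from -0.47 (without ND replicate 1) to -0.17 (without ND replicate 2) for Slc2a2, from 0.071 to 0.16 for Slc2a3, from -0.45 to -0.22 (without ND replicate 2) for Slc2a4, from 0.18 (without DM replicate 1) to 0.53 (without DM replicate 3) for Slc2a6 and from 0.027 (without DM replicate 2) to 0.11 (without DM replicate 3) for Slc2a8. Those of Slc2a2, Slc2a4 and Slc2a6 were -0.15, -0.14 and 0.21 with a pseudocount of 1. The log2 fold change of Slc2a1 (0.017) ran from -0.054 to 0.11 with each rat left out and was below 0 without DM replicate 2, DM replicate 3 or ND replicate 3. Slc2a2 and Slc2a4 had too low a mean for the filter at 1 FPKM.

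Alternatives for Slc2a5 without the filter were chosen after seeing the data. Its unadjusted p of 0.0489 in limma became 0.0186 with a pseudocount of 1, 0.0118 without the eBayes trend and 0.0440 with median-ratio scaling, and rose to 0.0764 with a pseudocount of 0.01. With each rat left out, the unadjusted p ran from 0.0540 to 0.144. Its log2 fold change was 0.20 with a pseudocount of 1, 0.94 with a pseudocount of 0.01 and 0.52 to 0.80 with each rat left out. Over all of these the adjusted p was between 0.543 and 0.941. With the replicate block its unadjusted p was 0.0960 at the same log2 fold change of 0.70. The replicate block left 0 members below an unadjusted p of 0.05, and 1651 genes in place of 1517. DM replicates 1 and 3 correlated best with the ND rat of their own number, and DM replicate 2 did not. The number of rats and the low levels of Slc2a5, Slc2a9, Slc2a10 and Slc2a13 limit what could be seen.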
